A study of Homo sapiens with 4 samples.

Results

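The nuclear pore and the receptors that carry cargo through it were followed as 49 transcripts in U937 cells, a human line from a histiocytic lymphoma with monocytic features that is widely used as a model of acute myeloid leukemia. The members were every listed gene with a GENCODE protein-coding symbol beginning with NUP, KPNA, KPNB, IPO, XPO or TNPO and a number (or XPOT), together with RAN, RANBP1, RANBP2, RCC1 and NXT1. Of 52 such symbols, 49 were among the 17656 genes of the table, and KPNA7, NUP210L and NUP62CL were not listed in it. The members comprised 22 nucleoporins, 23 transport receptors, and 4 further genes, namely the Ran cycle genes RAN, RANBP1 and RCC1 and the mRNA export cofactor NXT1.

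The study asked what reduced ZNF217, a zinc finger transcription factor, does to the transcriptome. RNA-seq libraries were compared between 2 sh-ZNF217 samples, labelled as ZNF217 knockdown, and 2 NC samples, labelled as untreated. The study's methods describe lentiviral hairpin vectors against ZNF217 and a negative control vector, while its text attributes the RNA-seq comparison in this line to CRISPR knockout of ZNF217. The sample titles carry the prefix sh that the study gives its hairpin vectors, without saying which hairpin. The study's RNA-seq methods also list these samples as knockdown. Its results text differs from both, so the method that was used is not resolved here. A knockout, unlike a knockdown, need not lower the transcript. In TPM, a transcript level corrected for length and scaled to a fixed library total, ZNF217 itself was at 35.8 and 35.0 in sh-ZNF217, against 36.1 and 36.7 in NC. Its log2 fold change was -0.04 (SE 0.071, adjusted p = 0.74, limma), so the transcript was not called lower, as a knockdown would have it, and every direction below is that of the libraries labelled sh-ZNF217. No label tells whether the samples within a group were grown as separate cultures, and the spread behind each p-value may be technical alone.

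The pore is a ring-shaped channel in the nuclear envelope built from many copies of the nucleoporins. Scaffold nucleoporins form its outer and inner rings, and nucleoporins rich in phenylalanine-glycine repeats fill the channel and line its cytoplasmic filaments and nuclear basket. Importins and exportins carry cargo through by touching these repeats, and the GTPase RAN sets the direction, because RCC1 on chromatin loads it with GTP inside the nucleus, while RANBP1 and RANGAP1 help it hydrolyse GTP outside. Bulk messenger RNA leaves with NXF1 and NXT1 instead. In leukemia the pore is known from translocations that fuse NUP98 or NUP214 to other genes.

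Promoter sequence is shown for RAN and NXT1, a pair of members whose transcripts were called lower and that sit outside the pore itself, as an example of the letters found ahead of these genes. Both stretches are RefSeq sequence of build GRCh38.p14 read on the plus strand and lie outside annotated exons. RAN at chr12:130871907-130872036 ends 30 bases before the RefSeq transcript start, and its capitals mark an E-box (CACGTG, 102 bases before the start) and GC boxes (GGGCGG or CCGCCC), the E-box sharing its last base with the GC box that follows. NXT1 at chr20:23350661-23350790 ends at the base before the start, and its capitals mark ETS sites (CCGGAAG or CTTCCGG) 121 and 76 bases before it, while its GC boxes 89 and 19 bases before the start are left in lower case.
RAN: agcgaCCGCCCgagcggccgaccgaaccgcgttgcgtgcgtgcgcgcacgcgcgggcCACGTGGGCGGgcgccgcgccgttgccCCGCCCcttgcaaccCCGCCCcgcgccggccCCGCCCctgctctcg
NXT1: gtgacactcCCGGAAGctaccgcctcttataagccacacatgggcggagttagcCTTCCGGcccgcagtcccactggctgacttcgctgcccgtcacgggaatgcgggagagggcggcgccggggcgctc

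Windows of 300 bases, from 250 before to 50 after the start, were at hand for 43 of the 49 members, and for none of KPNA4, KPNA5, KPNB1, NUP43, RANBP1 and XPO7. The ETS letters, searched on both strands, were in 15 of these 43 windows (34.9%), against 20.6% of the windows of tested genes and 10.7% of all 27305 windows. The E-box, which reads the same on both strands, was in 7 (16.3%), against 10.5% of tested genes and 7.43% of all windows. GC boxes were in 22 (51.2%), a share between that of all windows (44.6%) and that of tested genes (70.2%). The core letters of an NRF1 site (GCATGCGC or GCGCATGC) were in 5 windows (11.6%), against 6.06% of tested genes and 3.27% of all windows. Of the 6 members called lower that have a window, NUP107, NUP88 and NXT1 held the ETS letters and RAN the E-box (16.7%). Of the 37 members not called lower, 12 (32.4%) also held the ETS letters and 6 (16.2%) the E-box. GC boxes were in 4 of the 6 and 18 of the 37, and the NRF1 letters in 1 of the 6 (NUP107) and 4 of the 37. These counts are descriptions of letters and do not show that any factor binds there.

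The members were well expressed, and each passed the minimum of 1 TPM in at least 2 libraries that 14582 genes met. Their mean levels ran from 7.21 TPM in sh-ZNF217 and 4.19 TPM in NC for KPNA5 to 479 TPM in sh-ZNF217 and 683 TPM in NC for RANBP1, a level in the 98.5th percentile of tested genes. RAN, KPNA2, NUP210, RCC1, KPNB1, IPO5 and XPO1 followed RANBP1 in abundance in the plot of levels by library.

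**Figure D1:**
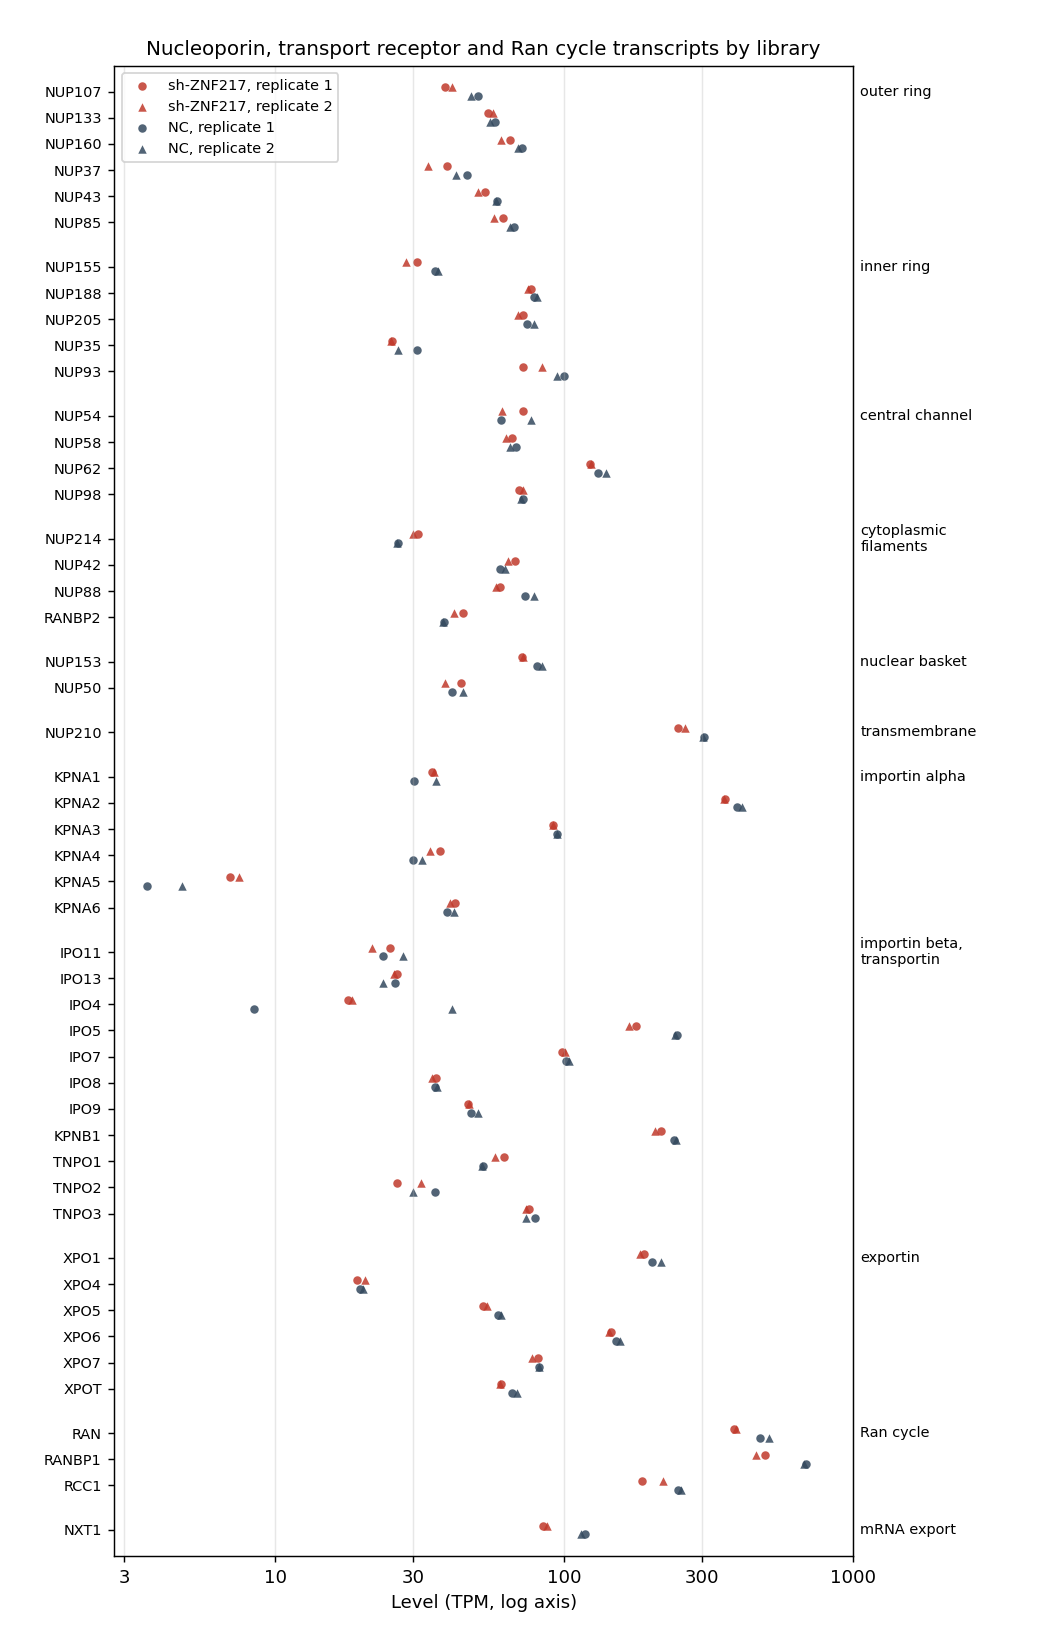
Level in TPM (log axis) of each of the 49 members in the 4 libraries, ordered by role, with both sh-ZNF217 libraries (red) above both NC libraries (blue) in each row. RANBP1, at 496 and 461 TPM in sh-ZNF217 and 688 and 679 TPM in NC, is the most abundant member, and the NC libraries of IPO4 stand far apart at 8.44 and 40.9 TPM.

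In sh-ZNF217, 7 members fell and none rose at an adjusted p below 0.05 (limma): RANBP1, IPO5, NXT1, RAN, NUP88, NUP210 and NUP107. That is 14.3% of the members lower, where 7.11% of all tested genes were lower and 9.77% higher at the same threshold. With the study's fold minimum added, an absolute log2 fold change above 0.5, RANBP1 alone was called, against 2.46% of all tested genes lower and 6.26% higher. At an unadjusted p below 0.05, 19 members were lower and 3 higher, against 2266 lower and 2750 higher of the 14582 tested genes. Without the trended and robust variance model, limma called none of the 7 (adjusted p = 0.0603 to 0.135), in a fit that called 1.12% of all tested genes lower. In the fits that left out one library, 2 of the 7 were called without sh-ZNF217 replicate 1, 2 without sh-ZNF217 replicate 2, 5 without NC replicate 1 and 4 without NC replicate 2. Of all tested genes, 1.14%, 1.07%, 3.19% and 4.11% were called lower in these 4 fits.

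Most differences were small. The log2 fold change was below 0 for 40 of the 49 members (81.6%), against 47.5% of all tested genes, and its median was -0.12, against 0.02 over all tested genes. Both sh-ZNF217 libraries lay below both NC libraries for 29 members (59.2%), against 28.6% of tested genes, and above them for 6 members (12.2%), against 33.5%. The groups overlapped for the other 14. The members' levels summed to 4576 and 4521 TPM in sh-ZNF217, against 5233 and 5358 TPM in NC. In bulk RNA, fewer cells of a kind and less RNA per cell cannot be told apart, and TPM is a share of a fixed total.

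**Figure D2:**
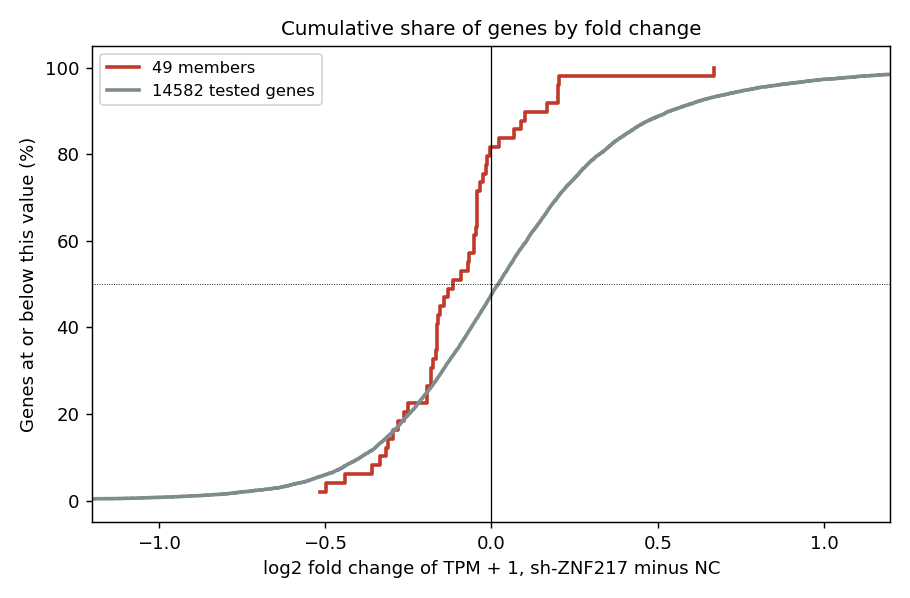
Cumulative share of genes (percent, y axis) by log2 fold change of TPM + 1, sh-ZNF217 minus NC (x axis), for the 49 members (red) and the 14582 tested genes (grey), with the x axis ending at 1.2 on either side. The members cross the middle of the y axis at -0.12 and all tested genes at 0.02, and in the lower left the curves run close together.

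The libraries differed in other ways along the same split. Mitochondrially encoded genes took 12.5% and 12.7% of TPM in sh-ZNF217, against 9.98% and 10.8% in NC, and with the total taken without them 6 members were called lower and RANBP1 missed the fold minimum (log2 fold change -0.48). Monocytic markers summed to 7044 and 6953 TPM in sh-ZNF217, against 4591 and 4580 TPM in NC, most of it LYZ at 5511 and 5328 TPM in sh-ZNF217, against 3270 and 3256 TPM in NC. Of the 12 markers, of which 11 passed the minimum level, 7 were called higher (9.77% of all tested genes were), ELANE was called lower, and MPO was near 0 in every library (0.0854 to 0.513 TPM). With plain empirical Bayes, CD4, CD68, FCGR1A and PTPRC of the 7 were not called (adjusted p = 0.15, 0.0814, 0.102 and 0.0608). CD4 was also not called with the replicate number as a block (adjusted p = 0.0639, limma). With one library left out, the log2 fold change ran from 0.56 to 0.95 for CD68, 0.32 to 0.47 for FCGR1A and -0.89 to -0.69 for ELANE. Of 6 T and NK cell markers CD2 and NCAM1 were listed, summing to 42.0 and 37.3 TPM in sh-ZNF217, against 32.2 and 26.7 TPM in NC, and of 5 B cell markers 3 were listed, at 7.06 and 4.45 TPM in sh-ZNF217, against 10.7 and 5.51 TPM in NC. Within these lists CD2 was called higher (mean TPM 3.24-fold that of NC, adjusted p = 0.0308) and PAX5 lower (log2 fold change -0.80, adjusted p = 0.0458), while CD79A had a log2 fold change of 1.06 and was not called (adjusted p = 0.0659). CD2, at 1.12 to 5.33 TPM, was not called with plain empirical Bayes (adjusted p = 0.0614, limma). PAX5, at 1.79 to 4.13 TPM, kept its call there (0.0394) but not with no filter (0.0541) or with the replicate number as a block (0.0771). Neither gene passed the filter of 5 TPM. With one library left out, the log2 fold change ran from 1.00 to 1.41 for CD2 and from -0.86 to -0.74 for PAX5. None of 6 erythroid and megakaryocyte markers and none of 6 epithelial and fibroblast markers was listed. The part of these shifts in the members' differences was not tested.

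Among the role groups with more than 1 member, the Ran cycle had the lowest median log2 fold change (-0.33). RANBP1, which binds Ran-GTP in the cytoplasm and frees it from receptors for hydrolysis, had 496 and 461 TPM in sh-ZNF217, against 688 and 679 TPM in NC. The groups lay far apart, and the log2 fold change was -0.51 (SE 0.054, adjusted p = 0.00615). It kept an adjusted p below 0.05 when any one library was left out (0.011 to 0.0434), with log2 fold changes from -0.57 to -0.46, the smallest being without sh-ZNF217 replicate 2 and short of the fold minimum. RANBP1 lies on chromosome 22 (20115938 to 20127355, plus strand, GRCh38) and shares exon sequence with TRMT2A on the other strand, which had 32.3 and 42.0 TPM in sh-ZNF217, against 49.9 and 47.6 TPM in NC (adjusted p = 0.0932). Whether the counting used strand is not given in the sources used here, so reads of the shared stretch cannot be assigned.

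RAN, the GTPase itself, had 389 and 394 TPM in sh-ZNF217, against 476 and 512 TPM in NC. Its log2 fold change was -0.33 (SE 0.054, adjusted p = 0.0167), and without sh-ZNF217 replicate 1 or 2 the adjusted p was 0.0835 or 0.0744. It has 9 annotated pseudogenes, and reads that they share with it make its level uncertain. RCC1, the exchange factor that loads RAN with GTP on chromatin, had 186 and 220 TPM in sh-ZNF217, against 248 and 255 TPM in NC, with the sh-ZNF217 libraries further apart than those of RAN. It did not pass the threshold (log2 fold change -0.31, adjusted p = 0.0619), and the log2 fold change was -0.19 or -0.43 when sh-ZNF217 replicate 1 or 2 was left out. SNHG3, a small nucleolar RNA host gene that shares exons with RCC1 on the same strand, had 43.7 and 43.3 TPM in sh-ZNF217, against 63.2 and 54.6 TPM in NC (log2 fold change -0.43, adjusted p = 0.0308). Summed, the 3 Ran cycle transcripts came to 1072 and 1074 TPM in sh-ZNF217, against 1412 and 1446 TPM in NC.

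Ratios taken within a library do not depend on its total. RANBP1 stood at 1.28 and 1.17 times RAN in sh-ZNF217, against 1.44 and 1.33 times in NC, so the groups did not overlap. RAN stood at 2.09 and 1.79 times RCC1 in sh-ZNF217, against 1.92 and 2.00 times in NC, and here they overlapped. With 2 libraries a group, no exact test of such a ratio can reach p = 0.05 and none was made.

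**Figure D3:**
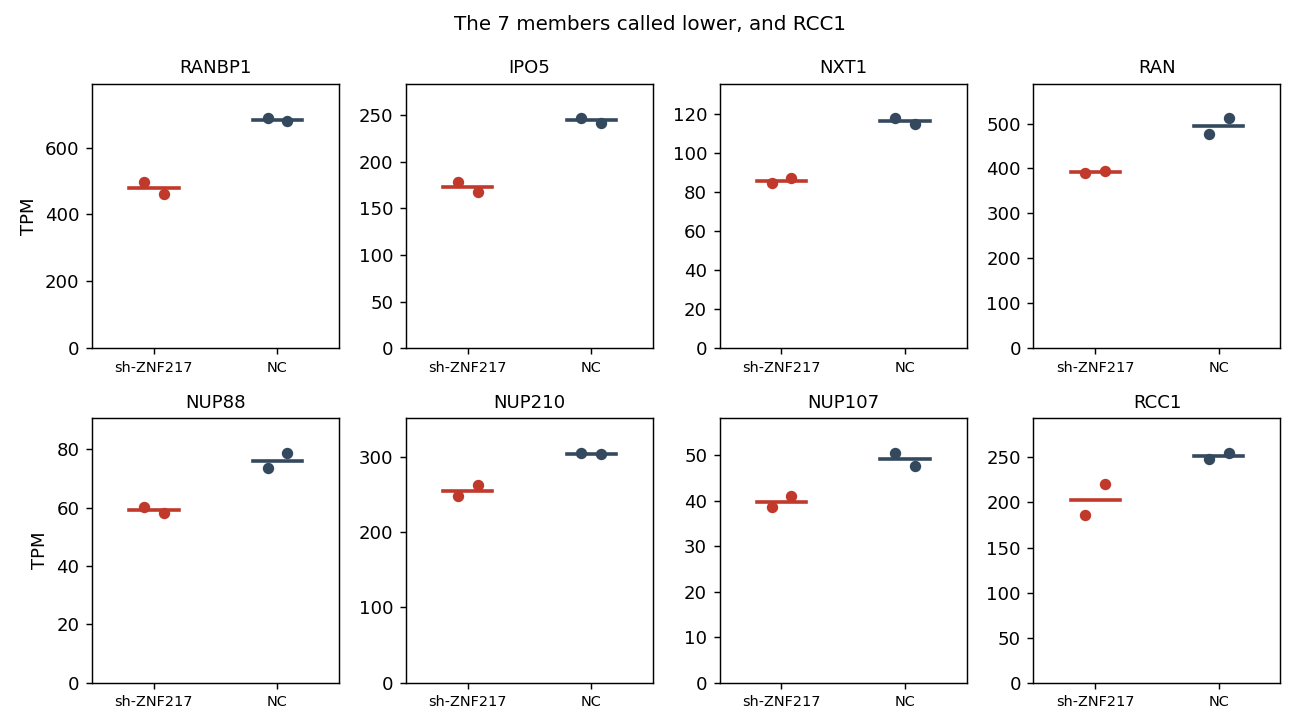
Level in TPM of the 7 members called lower and of RCC1, one panel each with the y axis starting at 0, with the 2 sh-ZNF217 libraries (red) left of the 2 NC libraries (blue) and a line at each group's mean. In every panel both sh-ZNF217 libraries lie below both NC libraries, by the widest relative gap in RANBP1 (mean 479 TPM in sh-ZNF217 and 683 TPM in NC).

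Outside the Ran cycle, NXT1 fell. This small partner of the mRNA export receptor NXF1 had 84.5 and 87.1 TPM in sh-ZNF217, against 118 and 115 TPM in NC, with a tight spread within either group. The log2 fold change was -0.44 (SE 0.056, adjusted p = 0.00985), and without sh-ZNF217 replicate 1 or 2 the adjusted p was 0.0575 or 0.0513. Its partner NXF1, which is not among the members, had 60.6 and 50.4 TPM in sh-ZNF217, against 50.8 and 54.5 TPM in NC, so its groups overlapped.

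Among the 11 importin beta type receptors and transportins, IPO5 alone was called lower (9.09%), beside 7.11% of all tested genes. IPO5, a receptor known for importing ribosomal proteins and core histones, had 178 and 168 TPM in sh-ZNF217, against 247 and 242 TPM in NC. The log2 fold change of -0.498 (SE 0.055, adjusted p = 0.007) fell just short of the fold minimum, and the adjusted p was 0.014 to 0.0481 when any one library was left out. KPNB1, importin beta 1 and the partner of the importin alphas, was the most abundant receptor of this type over the 4 libraries, though IPO5 was slightly higher in NC by mean (244 TPM, against 242 TPM for KPNB1). It had 216 and 207 TPM in sh-ZNF217, against 240 and 244 TPM in NC, and it did not pass (log2 fold change -0.19, adjusted p = 0.0558).

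The other importin beta type members had log2 fold changes from -0.16 to 0.20. TNPO1, which imports RNA-binding proteins such as hnRNP A1, had 62.1 and 57.9 TPM in sh-ZNF217, against 52.3 and 52.0 TPM in NC (log2 fold change 0.20, adjusted p = 0.104). Its close relative TNPO2 had 26.5 and 32.0 TPM in sh-ZNF217, against 35.8 and 29.9 TPM in NC, so TNPO1 stood at 2.34 and 1.81 times TNPO2 in sh-ZNF217, against 1.46 and 1.74 times in NC. The pair IPO7 and IPO8 kept overlapping ratios, 2.73 and 2.89 in sh-ZNF217, against 2.84 and 2.87 in NC. IPO9, an importer of histones H2A and H2B, and IPO7, which imports ribosomal proteins and linker histone, had sh-ZNF217 libraries slightly below those of NC (log2 fold changes -0.07 and -0.04), while the groups overlapped for IPO11, IPO13, IPO8 and TNPO3, the importer of SR splicing factors.

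IPO4, a histone importer, had the widest range of all members over the fits that left out one library. It had 17.9 and 18.5 TPM in sh-ZNF217, against 8.44 and 40.9 TPM in NC, so the NC libraries lay on either side of both sh-ZNF217 libraries. Its log2 fold change was -0.05 in all 4 libraries, -1.13 without NC replicate 1 (adjusted p = 0.00585) and 1.02 without NC replicate 2 (adjusted p = 0.0135). ENSG00000259522, annotated as a readthrough gene sharing exons with IPO4 on the same strand, ran the opposite way, with 12.4 and 14.0 TPM in sh-ZNF217, against 30.5 and 2.26 TPM in NC. The sum of IPO4 and this gene, formed after their values were seen, was 30.3 and 32.6 TPM in sh-ZNF217, against 39.0 and 43.1 TPM in NC. How the quantification divided reads between the 2 genes was not tested.

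The 6 importin alphas, adaptors that read the classical nuclear localization signal, went in both directions, and none was called. At an unadjusted p below 0.05 (limma), 1 was lower and 1 higher, beside 2266 lower and 2750 higher of the 14582 tested genes. KPNA2, the most abundant importin alpha and a gene known for its high level in dividing cells, had 361 and 357 TPM in sh-ZNF217, against 398 and 415 TPM in NC (log2 fold change -0.18, adjusted p = 0.0581). KPNA5, the least abundant, had 6.96 and 7.47 TPM in sh-ZNF217, against 3.61 and 4.77 TPM in NC. Its log2 fold change of 0.67 was the largest upward one among the members, at 0.51 to 0.83 with one library left out. The adjusted p of 0.0559 (limma) missed the threshold over all tested genes. It was 0.0281 where protein-coding genes alone were tested and 0.0438 with a filter of 5 TPM. With plain empirical Bayes it was 0.079, and with the replicate number as a block 0.0731.

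KPNA4 had 37.3 and 34.5 TPM in sh-ZNF217, against 29.9 and 32.2 TPM in NC (log2 fold change 0.20, adjusted p = 0.154). KPNA2 thus stood at 9.68 and 10.3 times KPNA4 in sh-ZNF217, against 13.3 and 12.9 times in NC. Against KPNA1, whose own groups overlapped, it stood at 10.4 and 10.1 times in sh-ZNF217 and 13.2 and 11.5 times in NC. KPNA3 (log2 fold change -0.05) and KPNA6 (0.02) were the other importin alphas.

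Of the 6 exportins, 5 had both sh-ZNF217 libraries below both NC libraries, as 28.6% of all tested genes did, and none was called. At an unadjusted p below 0.05 (limma), 3 exportins were lower, as were 2266 of the 14582 tested genes. XPO1, the receptor of leucine-rich export signals and the target of the drug selinexor, had 189 and 184 TPM in sh-ZNF217, against 201 and 216 TPM in NC (log2 fold change -0.16, adjusted p = 0.121). XPOT, the tRNA exporter, had 60.5 and 60.1 TPM in sh-ZNF217, against 66.3 and 69.0 TPM in NC, and XPO5, the exporter of microRNA precursors, had 52.3 and 54.2 TPM in sh-ZNF217, against 59.0 and 60.5 TPM in NC. The log2 fold changes of XPOT and XPO5 were both -0.16, with adjusted p of 0.13 and 0.138. XPO6, which exports actin with profilin, and XPO7 were at -0.09 and -0.04, and XPO4 was at -0.00 (95% interval -0.23 to 0.22) with overlapping groups. XPO5 shares exons with POLR1C, an RNA polymerase subunit gene at 52.1 and 48.0 TPM in sh-ZNF217, against 72.7 and 73.1 TPM in NC, and how shared reads were assigned was not tested.

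Among the nucleoporins, 3 of 22 fell (13.6%) and none rose, beside 7.11% lower and 9.77% higher over all tested genes, and each of the 3 belongs to another part of the pore. At an unadjusted p below 0.05 (limma), 9 were lower and 1 higher, beside 2266 lower and 2750 higher of the 14582 tested genes. The levels of the nucleoporins summed to 1489 and 1468 TPM in sh-ZNF217, against 1629 and 1646 TPM in NC, with a median log2 fold change of -0.14. For the 23 receptors the sums were 1931 and 1891 TPM in sh-ZNF217, against 2074 and 2151 TPM in NC, and the median was -0.05. The plot of differences shows each member with its interval.

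**Figure D4:**
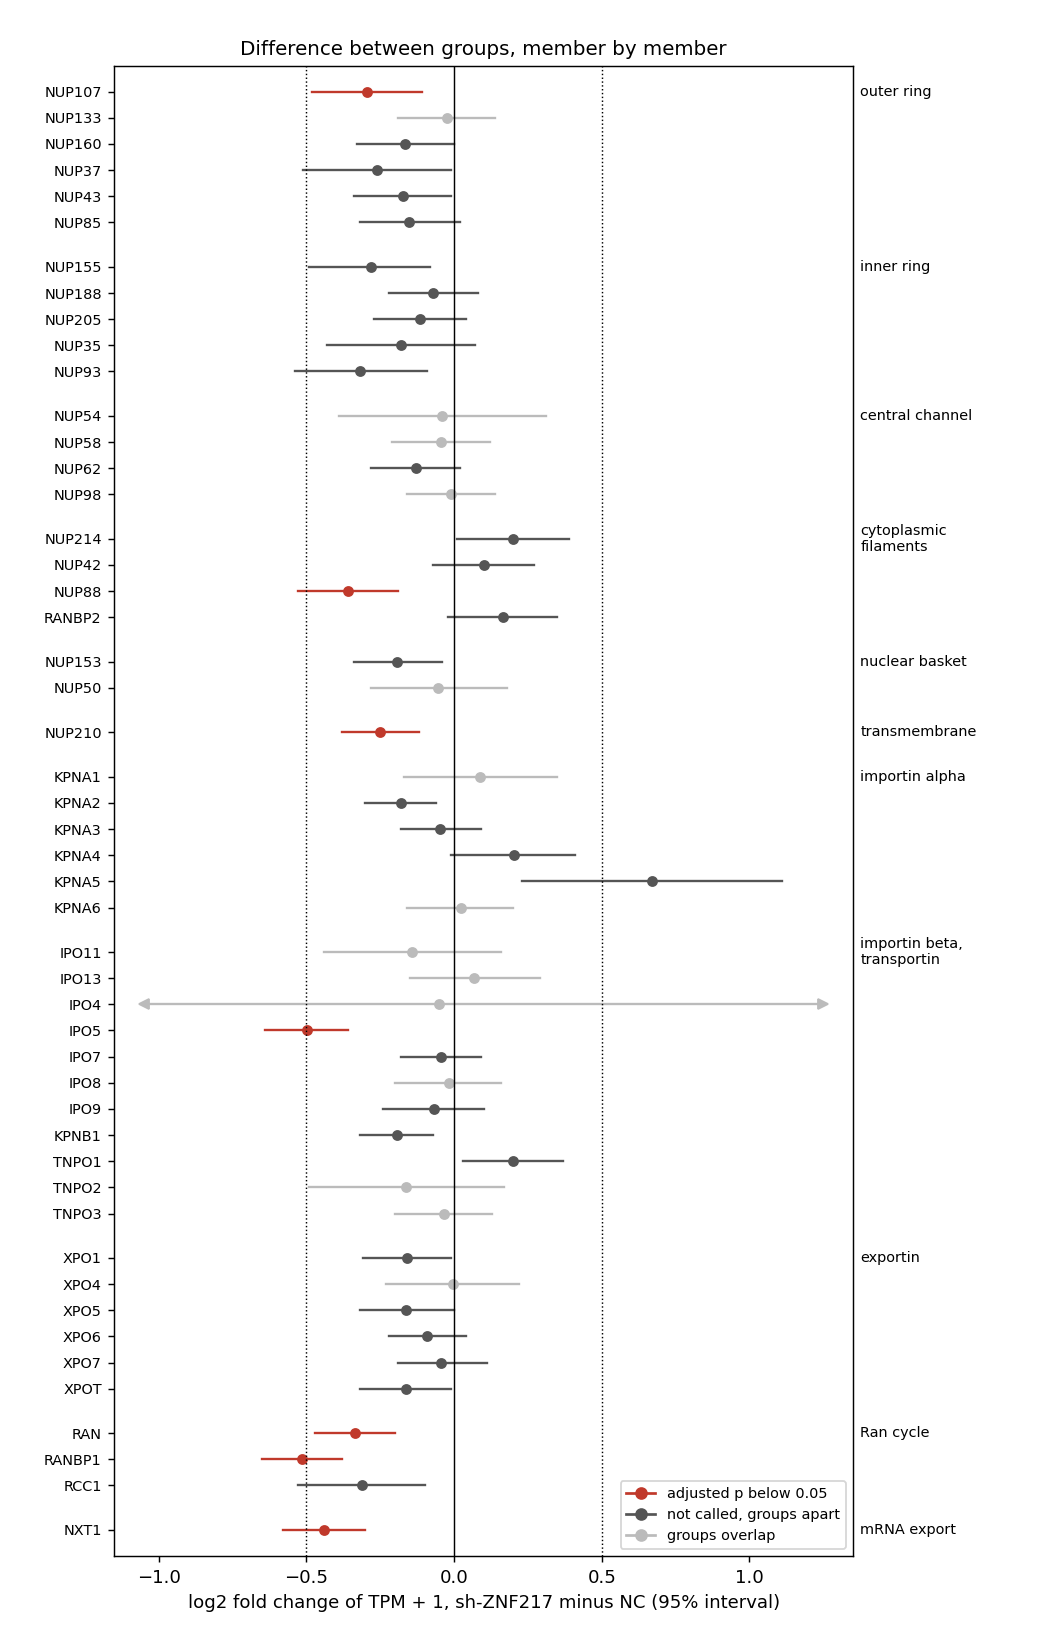
Log2 fold change of TPM + 1, sh-ZNF217 minus NC (x axis), with its 95% interval for each of the 49 members by role, in red where the adjusted p is below 0.05, dark grey where the groups do not overlap and light grey where they do, with dotted lines at the fold minimum of 0.5 and arrowheads where the interval of IPO4 (-2.03 to 1.92) leaves the axis. The 7 called members all lie left of 0, and KPNA5 lies furthest right at 0.67.

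In the outer ring, the Y-shaped scaffold that coats both faces of the pore and also sits at kinetochores, NUP107 had 38.6 and 41.0 TPM in sh-ZNF217, against 50.5 and 47.7 TPM in NC. It was called at the margin (log2 fold change -0.30, SE 0.074, adjusted p = 0.049), and the adjusted p lay between 0.0894 (without NC replicate 2) and 0.175 (without NC replicate 1) when any one library was left out, with 0.167 and 0.107 without sh-ZNF217 replicates 1 and 2. NUP160, the most abundant of these 6 members, had 64.8 and 60.7 TPM in sh-ZNF217, against 71.4 and 69.5 TPM in NC (log2 fold change -0.17, adjusted p = 0.145). NUP37, NUP43 and NUP85 also had both sh-ZNF217 libraries below both NC libraries (-0.26, -0.17 and -0.15), as 28.6% of all tested genes did. The groups of NUP133 overlapped (-0.03).

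All 5 inner ring members had both sh-ZNF217 libraries below both NC libraries, a separation that 28.6% of all tested genes showed, and none was called. At an unadjusted p below 0.05 (limma), 2 of these members were lower, as were 2266 of the 14582 tested genes. NUP93, which anchors the channel nucleoporins to this ring, had 71.9 and 84.2 TPM in sh-ZNF217, against 100 and 94.3 TPM in NC (log2 fold change -0.32, adjusted p = 0.0674). NUP155 stood at -0.28 (adjusted p = 0.0689), NUP35 at -0.18, NUP205 at -0.12 and NUP188 at -0.07.

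The 4 central channel members had a median log2 fold change of -0.04. None had an unadjusted p below 0.05 (limma), a threshold that 5016 of the 14582 tested genes met. NUP62, the core of the channel's repeat barrier, had 123 and 124 TPM in sh-ZNF217, against 131 and 140 TPM in NC (log2 fold change -0.13, adjusted p = 0.181), and it shares exons with ATF5 and IL4I1. Its partners NUP54 and NUP58 overlapped between groups, at -0.04 each. NUP98, the repeat nucleoporin of leukemia fusions whose transcript also encodes the scaffold protein NUP96, had 70.0 and 72.0 TPM in sh-ZNF217, against 72.1 and 71.1 TPM in NC, with a log2 fold change of -0.01 (95% interval -0.16 to 0.14).

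The 4 cytoplasmic filament members split. NUP88, which holds NUP214 on the cytoplasmic face, had 60.2 and 58.1 TPM in sh-ZNF217, against 73.5 and 78.8 TPM in NC. It fell by 0.36 on the log2 scale (SE 0.068, adjusted p = 0.0248), with an adjusted p of 0.0833, 0.0984 and 0.0823 without sh-ZNF217 replicate 1, sh-ZNF217 replicate 2 and NC replicate 2. Its partner NUP214 had 31.2 and 29.9 TPM in sh-ZNF217, against 26.6 and 26.4 TPM in NC, so here both sh-ZNF217 libraries were the higher ones (log2 fold change 0.20, adjusted p = 0.137). RANBP2, the large filament protein that holds RANGAP1 at the pore, and NUP42, which binds the mRNA export factor GLE1, also had both sh-ZNF217 libraries above both NC libraries, at 0.17 (adjusted p = 0.175) and 0.10 (adjusted p = 0.341). Over all tested genes, 33.5% had both sh-ZNF217 libraries above both NC libraries and 28.6% had them below. RANBP2 has near-identical copies, of which RGPD3, RGPD4, RGPD5, RGPD6 and RGPD8 were listed at 0.246 to 3.36 TPM, and NUP88 overlaps RABEP1 and RPAIN on the other strand.

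In the nuclear basket, NUP153 had 71.7 and 72.3 TPM in sh-ZNF217, against 80.9 and 83.9 TPM in NC (log2 fold change -0.19, adjusted p = 0.0813), and NUP50, which works with importin alpha, overlapped between groups (-0.05). NUP210, a membrane-spanning nucleoporin whose level is known to vary between cell types, was by far the most abundant nucleoporin here, with 248 and 262 TPM in sh-ZNF217, against 305 and 303 TPM in NC. Its log2 fold change was -0.25 (SE 0.052, adjusted p = 0.0307). Leaving out sh-ZNF217 replicate 1, sh-ZNF217 replicate 2, NC replicate 1 or NC replicate 2 gave an adjusted p of 0.122, 0.0743, 0.0904 or 0.0776.

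Genes of the same machinery whose symbols the pattern does not match were taken from further lists. Of 10 other pore components, RAE1, an mRNA export factor bound to NUP98, was the one called, with 34.8 and 33.9 TPM in sh-ZNF217, against 45.2 and 42.8 TPM in NC (log2 fold change -0.35, adjusted p = 0.0313, and 0.0643 to 0.123 without any one library). The median of the 10 was -0.20. Of 12 other Ran cycle and transport factors that were listed, CSE1L and RANGAP1 were called lower (both -0.31, adjusted p = 0.0251 and 0.0301), and the median was -0.09. CSE1L, the exportin that returns importin alpha to the cytoplasm, had 122 and 114 TPM in sh-ZNF217, against 145 and 147 TPM in NC. RANGAP1, the activator of RAN's GTP hydrolysis that was named after its value was seen, had 100 and 102 TPM in sh-ZNF217, against 130 and 120 TPM in NC. The call of CSE1L was lost without any one library (0.0657 to 0.0973), and that of RANGAP1 without sh-ZNF217 replicate 1, sh-ZNF217 replicate 2 or NC replicate 1 (0.115, 0.0993 and 0.108).

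Of 20 mRNA and snRNA export adaptors, 4 were called lower and none higher, with a median of -0.15. THOC5, of the THO complex that couples transcription to export, passed the fold minimum, with 22.5 and 31.0 TPM in sh-ZNF217, against 41.2 and 42.1 TPM in NC (log2 fold change -0.64, adjusted p = 0.0437). Its sh-ZNF217 libraries stood apart from each other, and without sh-ZNF217 replicate 1 the log2 fold change was -0.41, short of the fold minimum (adjusted p = 0.0812). Without NC replicate 1 or NC replicate 2 the adjusted p was 0.123 or 0.129. ALYREF, the adaptor that hands mRNA to NXF1, had 267 and 303 TPM in sh-ZNF217, against 385 and 371 TPM in NC (log2 fold change -0.41, adjusted p = 0.0208, and 0.0739 and 0.0594 without sh-ZNF217 replicate 1 and NC replicate 1). DDX39A (log2 fold change -0.28, adjusted p = 0.0256) and THOC6 (-0.35, 0.0301) were the other 2, named after their values were seen. The call of THOC6 was lost without any one library (0.0617 to 0.116), and that of DDX39A without sh-ZNF217 replicate 1, sh-ZNF217 replicate 2 or NC replicate 2 (0.0961, 0.101 and 0.083).

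Of 12 tested genes of the nuclear lamina and envelope, 4 were called lower and 1 higher. LMNA, which encodes the A-type lamins, rose, with 303 and 328 TPM in sh-ZNF217, against 220 and 201 TPM in NC (log2 fold change 0.58, adjusted p = 0.00863, and 0.0528 without sh-ZNF217 replicate 2). The B-type lamin genes LMNB1 and LMNB2 were among those called lower (log2 fold changes -0.24 and -0.30), with BANF1 (-0.44) and EMD (-0.32), and these 4 were named after their values were seen. The calls of LMNB1 (adjusted p = 0.0663 to 0.143), LMNB2 (0.0668 to 0.129) and EMD (0.0594 to 0.0878) were lost without any one library, those of LMNB1 and LMNB2 also without mitochondrially encoded genes (0.0664 and 0.0524), and that of BANF1 without sh-ZNF217 replicate 1 (0.0573). The shares called in these lists stand beside a background of 7.11% lower and 9.77% higher over all tested genes, and with plain empirical Bayes limma called none of the genes named from them as lower or higher (adjusted p = 0.0613 to 0.146).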

How the data were processed

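RNA of 4 U937 samples was sequenced. Reads were filtered, aligned to hg38 with HISAT2 (2.0.5, from the submitters' processing notes) and quantified by the authors, with quantifier, annotation and strand setting not given in the sources used here. FPM is the measure the study names, but the values deposited by the authors behave as TPM: columns sum to 998932 to 999282 and low values share no common step. TPM keeps no depth, so depth is unknown and no counting interval can be given. Column names were assigned to samples through NC or ZNF and the replicate number, and other elements of the names are unexplained. Symbols, positions and exon overlaps came from GENCODE 44 (16143 of 17656 IDs matched).

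The 14582 genes that reached 1 TPM in 2 or more libraries were fitted as log2(TPM + 1) on group with limma 3.58.1 (R 4.3.3, trended and robust empirical Bayes), and p-values were adjusted over all of them (Benjamini-Hochberg). Calls were made at an adjusted p below 0.05, with and without a minimum absolute log2 fold change of 0.5. Fold changes on this scale understate those of low genes. The fit was checked on simulated data in which a gene's spread followed its level alone. That check cannot speak to genes with an outlying spread. Members and lists were chosen with earlier results of these data known. Values are given by library for members called with the fold minimum, RAN, RANBP1, RCC1 and, in each role, the member with the smallest p and the most abundant one. Further members and genes were named after their values were seen. Alternatives were another pseudocount (0.1), no filter, a filter of 5 TPM, median-of-ratios scaling, totals without mitochondrially encoded genes, protein-coding genes alone, plain empirical Bayes, a replicate block, and leaving out each library.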

Additional observations from a re-analysis of the deposited data

How the results depend on the processing

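RANBP1 and IPO5 had an adjusted p below 0.05 in each alternative fit except plain empirical Bayes (0.0604 and 0.0603). Members called lower numbered 7, and the count was 12 with protein-coding genes alone tested (adding RCC1, KPNB1, NUP93, KPNA2 and NUP155), 10 with a filter of 5 TPM or median-of-ratios scaling (adding KPNB1, KPNA2 and RCC1), 7 with a pseudocount of 0.1, 6 with no filter or without mitochondrially encoded genes, 0 with plain empirical Bayes (which called 163 of all tested genes lower), and 2 to 6 when one library was left out, the 6 including IPO4. Over all tested genes, the share called lower moved too, at 7.11% as reported, 12% with protein-coding genes alone, 11.1% with the 5 TPM filter, 8.92% with median-of-ratios scaling, 6.91% with a pseudocount of 0.1, 5.06% with no filter, 5.73% without mitochondrially encoded genes and 1.07% to 4.11% with one library left out. Members called higher numbered 0, beside 9.77% of all tested genes. The count was 1 (KPNA5) with the 5 TPM filter or protein-coding genes alone, where 13.8% and 15% of all tested genes were called higher. At the fold minimum, shares over all tested genes are at hand for the reported fit alone, at 2.46% lower and 6.26% higher. With the fold minimum, the lower count of 1 became 2 with a pseudocount of 0.1 or median-of-ratios scaling (IPO5 joining), 0 without mitochondrially encoded genes or with plain empirical Bayes, and 0 to 2 with one library left out, and the higher count of 0 became 1 with the 5 TPM filter or protein-coding genes alone and 0 to 1 with one library left out. The number of genes tested and adjusted over differs between the filters. A fit that leaves out a library has 1 library in that group, so the spread rests on the other group and power is lower. The cause of the other changes was not tested. The median of the members was -0.14 to -0.08 with one library left out.

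Signs changed for members that were close to level. Without mitochondrially encoded genes the log2 fold change was 0.01 for NUP133, 0.02 for NUP98, 0.02 for IPO8, 0.00 for TNPO3 and 0.03 for XPO4, and with median-of-ratios scaling it was -0.01 for KPNA6. With one library left out it ran from -0.05 to 0.00 for NUP133, -0.22 to 0.13 for NUP54, -0.03 to 0.01 for NUP98, -0.14 to 0.04 for NUP50, -0.04 to 0.21 for KPNA1, -0.01 to 0.06 for KPNA6, -1.13 to 1.02 for IPO4, -0.04 to 0.01 for IPO8, -0.09 to 0.02 for TNPO3 and -0.05 to 0.04 for XPO4.

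The replicate numbers of the groups do not pair the samples by any label, and deviations of same-numbered libraries did not run together (correlation -0.00534 over genes). With the replicate number as a block, 5 members were called lower (RANBP1, IPO5, NXT1, RAN and NUP88), beside 4.77% of all tested genes, and NUP210 (adjusted p = 0.0563) and NUP107 (0.0877) were not. Depth is unknown, so counting error could not be separated from the spread between libraries.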
